A study of Mus musculus with 12 samples.

Results

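The genes described here are 39 genes of antioxidant defence, among them targets of the transcription factor NRF2, read by gene symbol from 56748 entries of a deposited table of scaled counts and from the matching table of TPM, a transcript level adjusted for gene length and library total. The members were taken by name as genes of this network, and fall into 10 roles, from the control of NRF2 to the repair of oxidised methionine. All 39 were present in both tables. The samples were retinas of 2-month-old mice, either knockout mice (RiboTag; Abca4-/-; i75-Rod-Cre, here *Abca4*Ko) or littermate controls (RiboTag; i75-Rod-Cre, labelled Abca4+/+). Both genotypes thus carried the RiboTag ribosomal protein allele and the Cre, which the rhodopsin promoter drives in rods and which turns the tag on there. The Abca4 allele itself is not limited to rods, and neither the sex of the mice nor a batch is given. Each genotype had 3 libraries of rod messages, recovered on the tagged ribosomes by translating ribosome affinity purification (rod TRAP), and 3 of the whole retina lysate, 12 libraries in all. Nothing in the labels says that each replicate was a separate animal, so the tests measure the spread between these libraries.

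ABCA4 is a lipid transporter of photoreceptor outer segments that clears retinaldehyde adducts after light exposure. Without it, these adducts condense into bisretinoids, pigments that build up in the retinal pigment epithelium (RPE) and generate reactive oxygen species when lit. Cells answer oxidants in large part through NRF2, encoded by *Nfe2l2*. KEAP1 holds NRF2 in the cytosol and directs its degradation until its cysteines are modified, after which NRF2 binds antioxidant response elements with a small MAF partner. The classical targets make haem oxygenase 1, NAD(P)H quinone dehydrogenase 1, the glutamate-cysteine ligase subunits, sulfiredoxin and thioredoxin reductase 1. The other members remove superoxide and peroxides (superoxide dismutases, catalase, peroxiredoxins and glutathione peroxidases), conjugate glutathione to electrophiles (glutathione transferases) or reduce disulfides (thioredoxins and glutaredoxins). The comparison of the genotypes asks whether the transcripts of this network differed at 2 months in retinas that lack ABCA4.

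*Abca4* itself was read first as a check on the labels. In rod TRAP its scaled counts were 195, 365 and 13156 in *Abca4*Ko replicates 1 to 3, against 53193 to 61017 in the controls. In retina they were 153, 366 and 8124 against 37619 to 38929. In the third knockout replicate as labelled, *Abca4* thus stood at 23.53% and 21.26% of the control mean, and counts and leading members of the genotype comparisons are also given without these libraries. All 15 rod markers were higher in rod TRAP than in retina, with a median log2 fold change of 1.35 in controls, and 13 of 14 Müller glia markers were lower there, with a median of -4.11. The summed TPM of 11 lens genes ran from 24.3 to 28112.4 between the retina libraries and was high in *Abca4*Ko replicates 2 and 3 and in control replicate 1. The scaled totals are all but equal within a fraction (17096515 to 17097707 in rod TRAP, 17860761 to 17862326 in retina), so they are not the depth, which is unknown here.

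Upstream sequences of the members were searched for the motif that NRF2 is known to bind. As a choice, 4 are printed, those of NRF2 itself and of 3 other members. Members whose matches are not printed are also named in the results below. RefSeq promoters, 250 bases before to 50 after a start site in mouse build GRCm38.p6, were matched for 32 of the 39 members. Those not matched were *Gclc*, *Gsr*, *Gsta4*, *Hmox1*, *Msra*, *Prdx6* and *Sod3*. The core of the antioxidant response element, TGACNNNGC, was searched on both strands. It can overlap the AP-1 motif, TGAGTCA or TGACTCA, and does so in the *Prdx1* match. The core was found for 9 of the 32 members (28.12%) and for 13.99% of the 27025 genes in the table. The windows below are read 5′ to 3′ on the strand of the gene, with the match in capitals. In *Prdx1*, *Gclm* and *Txnrd1* the match is to the other strand and so reads as the reverse complement. Distances run from the last base of the match to the start site.
Nfe2l2, minus strand, chr2:75704865-75704913, 232 bases before: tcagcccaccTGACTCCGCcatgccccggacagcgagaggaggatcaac
Prdx1, plus strand, chr4:116685436-116685504, 125 bases before: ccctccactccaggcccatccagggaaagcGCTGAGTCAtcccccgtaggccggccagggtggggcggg
Gclm, plus strand, chr3:122245393-122245461, 126 bases before: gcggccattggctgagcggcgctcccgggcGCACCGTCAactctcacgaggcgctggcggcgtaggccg
Txnrd1, plus strand, chr10:82859084-82859152, 84 bases before: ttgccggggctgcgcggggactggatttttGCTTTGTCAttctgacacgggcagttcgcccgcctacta
The other matches lay before the start sites of *Gstm5*, *Mgst1* and *Sod1* and after or across those of *Msrb2* and *Srxn1*. A match describes letters and not a bound site. The build differs from the GRCm39 of the submitters' processing notes, so no other positions are given.

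The most abundant member was a lipid peroxide enzyme. In TPM, which allows levels to be compared between genes, *Gpx4* stood first in both fractions, with 1522 ± 120 in rod TRAP and 1888 ± 229 in retina (SD, n = 6 libraries of both genotypes). GPX4 is the glutathione peroxidase that reduces lipid hydroperoxides within membranes. It made up 35.45% to 39.69% of the members' summed TPM in the rod libraries and 27.44% to 36.54% in the retina libraries. Next in rod TRAP came the glutathione transferase *Gstp1* (486 TPM), the redox sensor *Park7* (396 TPM), the cytosolic superoxide dismutase *Sod1* (356 TPM) and the cytosolic peroxiredoxin *Prdx2* (219.5 TPM). In retina the order after *Gpx4* was *Sod1* (600 TPM), *Gstp1* (487 TPM), *Park7* (381 TPM) and *Prdx2* (325 TPM). The ranges of *Sod1*, 332.5 to 377.0 TPM in rod TRAP and 533.4 to 701.4 TPM in retina, did not overlap between the fractions, whereas those of *Gstp1* and *Park7* did.

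The lower end of the order separated the fractions more. The extracellular superoxide dismutase *Sod3* (0.117 TPM), the quinone reductase *Nqo1* (0.283 TPM), the methionine sulfoxide reductase *Msrb2* (0.483 TPM), the microsomal transferase *Mgst1* (0.90 TPM) and *Gsta4* (0.967 TPM) averaged under 1 TPM in rod TRAP. In retina the same genes averaged 10.1, 5.05, 8.83, 39.5 and 53.1 TPM, and no member lay under 1 TPM in any retina library. The least abundant members of the retina were *Nqo1* and *Hmox1* (6.68 TPM), both classical NRF2 targets. Summed over all 39 members, TPM came to 4140 to 4429 in *Abca4*Ko and 4008 to 4050 in control rod TRAP, and to 5499 to 6216 and 6181 to 7376 in the retina libraries. The *Abca4*Ko sums thus lay above the control sums in rods without overlap. In retina they overlapped. Such a sum weighs the abundant members most, and *Gpx4* averaged 1592 ± 144 TPM in *Abca4*Ko rods and 1451 ± 26 in control rods (SD, n = 3). Taken gene by gene in TPM, 16 of 35 members tested were higher in *Abca4*Ko rods and 19 lower. Their median log2 difference was -0.01, beside -0.05 over all genes. How often other sets of genes separate in this way was not computed.

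**Figure D1:**
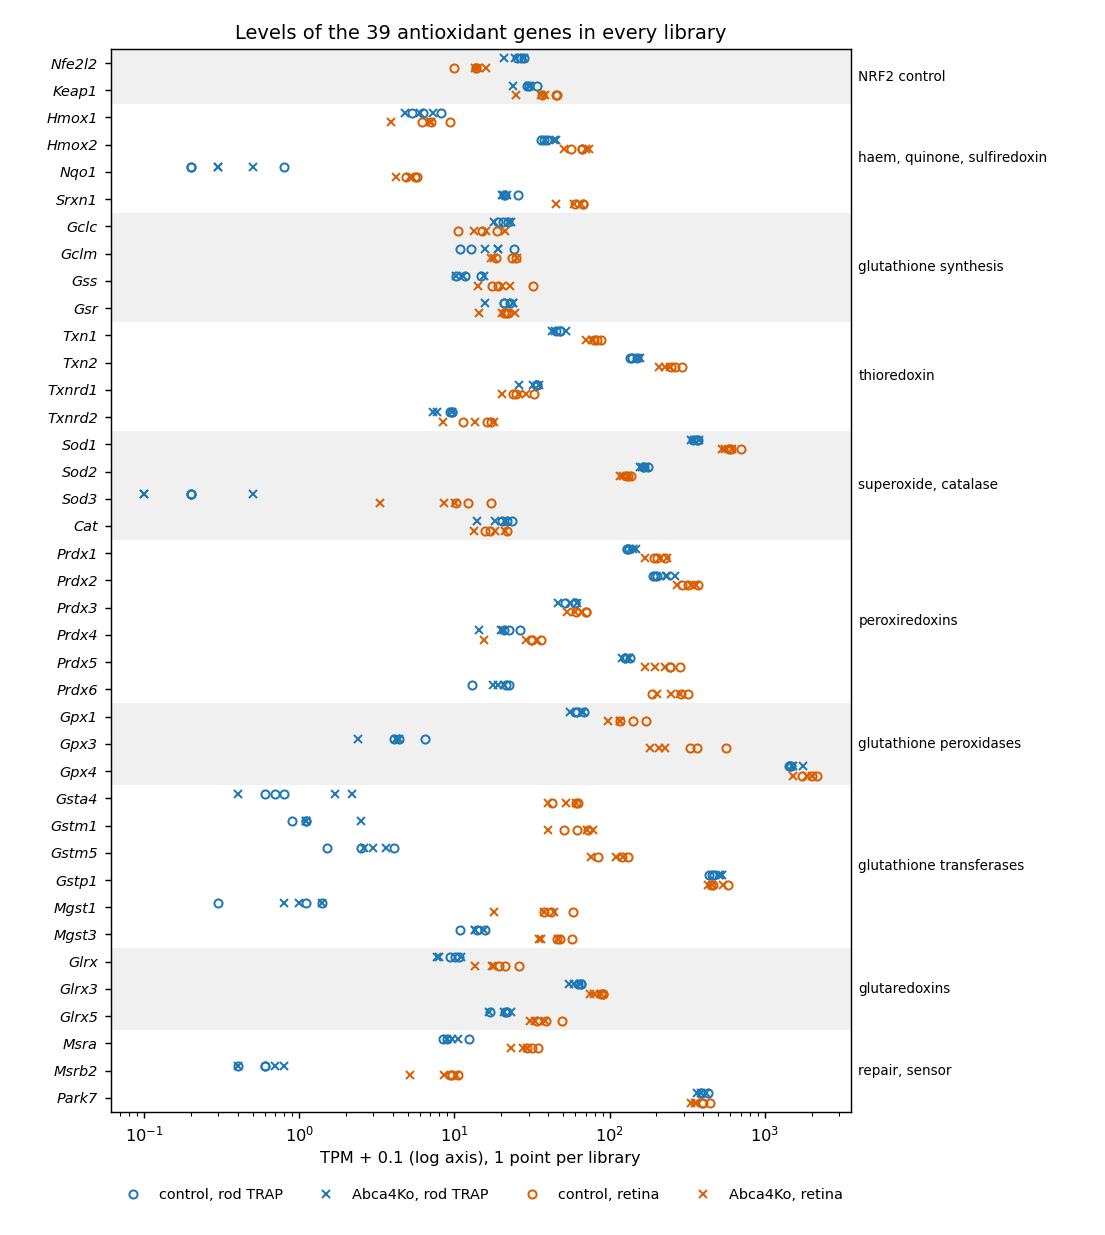
TPM of each of the 39 members in each of the 12 libraries, plus 0.1 so that a value of 0 can be drawn on the log axis, grouped by role (circles, control; crosses, Abca4Ko; blue, rod TRAP; orange, retina). Gpx4 lies highest in both fractions, and Gpx3, Prdx6, Sod3 and 4 of the 6 glutathione transferases (Gsta4, Gstm1, Gstm5 and Mgst1) lie far lower in rod TRAP than in retina.

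The tables disagree on 2 members. *Gpx1* had 0.520 scaled counts per TPM in retina, the lowest ratio of the 39 (the next was *Sod1* with 5.04), so its level depends on the table. *Gclm* in control rod TRAP was at 12.6, 24.0 and 10.8 TPM but at 247, 257 and 254 scaled counts. Close copies of the glutathione transferase and peroxiredoxin genes can share reads, and how such reads were assigned is not given in the sources used here. The levels of *Gstm1*, *Gstm5*, *Gstp1*, *Prdx1* and *Prdx2* carry that doubt.

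Relative to other genes, the messages for NRF2 and 4 enzymes were higher in rod TRAP than in retina, and those of 15 other members were lower. The rod TRAP and retina libraries of the controls were compared with limma on log2(CPM + 0.5), where CPM is the scaled count relative to the library total, after a further rescaling of each library by trimmed means of log ratios. A gene is called when its p, adjusted over all genes tested, is under 0.05. Of the 16286 genes tested, 36.6% were called higher and 38.8% lower in rod TRAP. A gene that passes the filter on low values through 1 fraction alone has to differ. The counts that follow therefore keep to genes with at least 10 scaled counts in all 6 libraries, of which 46.8% of 12093 were called higher and 23.9% lower. Of the 32 members that met this, 5 were called higher (15.6%), 15 lower (46.9%) and 12 were not called. The other 7 (*Nqo1*, *Sod3*, *Gsta4*, *Gstm1*, *Gstm5*, *Mgst1* and *Msrb2*) were below that minimum in at least 1 rod library and were tested only because retina lifted them over the filter, so that their being lower is no finding. Rescaling sets the median of all genes tested near 0. With the authors' scaling alone, that median moved to -0.62, so directions near 0 hold only relative to the other genes. Of the 32 members, 1 was then called higher and 26 lower, beside 26.5% and 48.9% of the 12093 genes. In TPM, 2 of the 32 were called higher and 21 lower, beside 32.9% and 33.4% of 11231 such genes. The fractions differ both in cell type and in whether the RNA was bound to ribosomes, and these cannot be told apart.

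*Nfe2l2*, the gene for NRF2, was the member most enriched in rods. Its TPM was 26.7, 27.8 and 25.2 in the control rod libraries and 13.6, 13.6 and 9.9 in control retina, with no overlap. The log2 fold change was 1.41 ± 0.15 (SE, n = 3 and 3, limma adjusted p = 1.6e-06), and it stayed between 0.78 and 1.45 under every alternative run. *Keap1*, its inhibitor, was not called in the comparison as fitted. Its TPM was 29.9, 33.9 and 29.2 in rods and 36.4, 45.3 and 45.4 in retina, and the log2 fold change was -0.18 ± 0.13 (limma adjusted p = 0.22). It was called lower under 4 of 13 alternatives, with -0.82 at the authors' scaling (limma adjusted p = 1.0e-04), -0.43 in TPM, -0.29 with median of ratios and -0.21 without control retina replicate 3.

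The other 4 members called higher were *Gclc*, *Sod2*, *Txnrd1* and *Cat*. *Gclc*, the catalytic subunit of the rate-limiting enzyme of glutathione synthesis, was at 19.1, 22.1 and 20.4 TPM in control rods and at 15.0, 18.7 and 10.4 TPM in control retina, without overlap. It differed by 0.82 ± 0.16 on the log2 scale (limma adjusted p = 4.0e-04), or by 0.18 with the authors' scaling alone, where it was not called. The mitochondrial superoxide dismutase *Sod2* (0.61 ± 0.11, limma adjusted p = 2.7e-04), the cytosolic thioredoxin reductase *Txnrd1* (0.60 ± 0.12, limma adjusted p = 4.7e-04) and catalase, *Cat* (0.59 ± 0.13, limma adjusted p = 0.0012), turned to -0.03, -0.04 and -0.04 with that scaling. In the fit of TPM, *Sod2* was still called, whereas *Gclc* (0.49, limma adjusted p = 0.057), *Txnrd1* (0.33, limma adjusted p = 0.084) and *Cat* (0.26, limma adjusted p = 0.20) were not. In TPM, *Sod2* was at 164.4, 175.5 and 165.7 in control rods and at 137.6, 127.6 and 130.8 in control retina. *Txnrd1* was at 33.5, 33.9 and 33.7 TPM against 24.7, 32.4 and 23.7 TPM. Neither overlapped between the fractions, whereas *Cat*, at 20.2, 23.3 and 21.7 TPM against 15.6, 21.8 and 16.9 TPM, did.

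Peroxide enzymes diverged within families. *Gpx3*, the secreted plasma glutathione peroxidase, was at 4.3, 4.0 and 6.4 TPM in control rods and at 328.3, 363.1 and 560.5 TPM in control retina. Its CPM was 68.7-fold lower in rods (log2 fold change -5.92 ± 0.22, limma adjusted p = 3.7e-10), whereas *Gpx4* differed by -0.15 ± 0.15 (limma adjusted p = 0.36). Among the peroxiredoxins, *Prdx6*, which also acts on phospholipid hydroperoxides, was 12.2-fold lower (-3.55 ± 0.20, limma adjusted p = 7.5e-09). *Prdx1*, *Prdx2* and *Prdx5* were called lower by 0.38 to 0.74 on the log2 scale, while mitochondrial *Prdx3* (0.07 ± 0.13) and *Prdx4* of the endoplasmic reticulum (-0.17 ± 0.18) were not called. The *Gpx3* and *Prdx6* values of the rod and retina groups were far apart, with no overlap.

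Of the 6 glutathione transferases, 4 were too low in control rods for a test that the filter does not set, and their levels are given as a description. *Gstm5* was at 4.0, 2.4 and 1.4 TPM in control rods and at 84.3, 119.6 and 130.5 TPM in control retina. *Gstm1*, *Gsta4* and *Mgst1* stood at 0.2 to 1.3 TPM in those rod libraries and at 37.8 to 72.3 TPM in the retina libraries. The same holds for *Sod3*, at 3, 4 and 4 scaled counts in control rods and at 447, 478 and 750 in control retina, and for *Nqo1*, at 1, 1 and 9 against 97, 69 and 94. Of the 2 transferases that met the minimum, *Mgst3* was called lower (-1.53 ± 0.19, limma adjusted p = 7.7e-06) and *Gstp1* was not called (0.16 ± 0.16, limma adjusted p = 0.39). The 14 Müller glia markers summed to 529.6 to 574.6 TPM in control rods and to 4586.0 to 6910.0 TPM in control retina. The part of these cells in the member values was not tested.

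The remaining roles held smaller differences. Sulfiredoxin, *Srxn1*, which restores overoxidised peroxiredoxins, differed by -1.17 ± 0.12 (limma adjusted p = 2.0e-06), and the methionine sulfoxide reductase *Msra* by -1.36 ± 0.18 (limma adjusted p = 1.5e-05). *Txn1*, *Txn2*, *Sod1*, *Gss*, *Glrx*, *Glrx5* and *Gpx1* were called lower as well, by between 0.49 and 0.82 on the log2 scale. *Hmox1*, *Hmox2*, *Gclm*, *Gsr*, *Txnrd2*, *Glrx3* and *Park7* were not called.

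**Figure D2:**
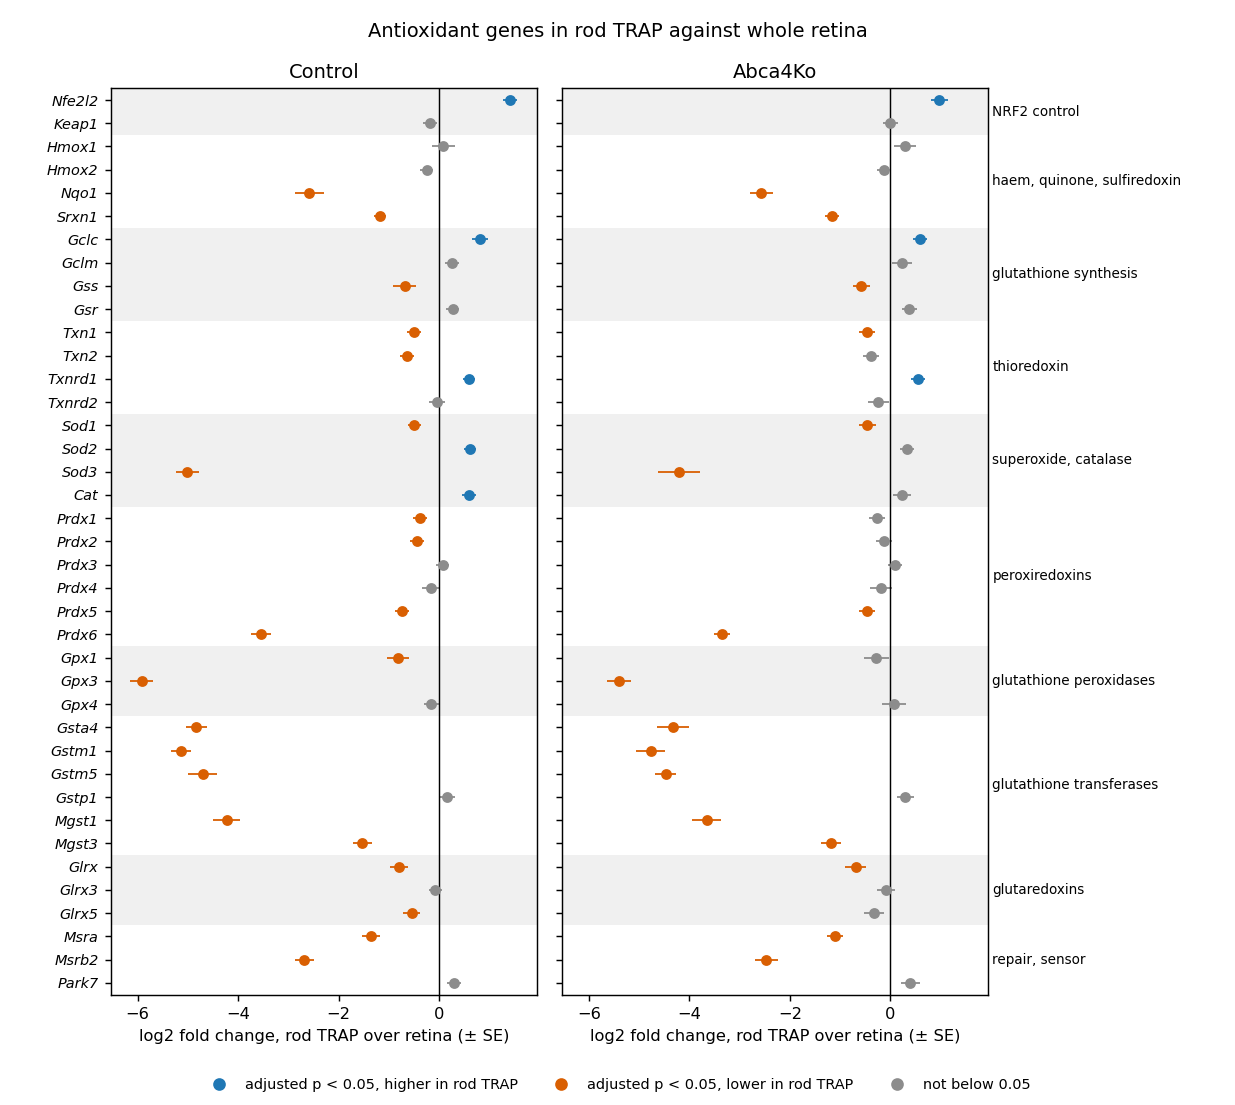
Log2 fold change of each member, rod TRAP over retina, with its SE from limma (3 against 3 libraries), in controls (left) and Abca4Ko (right), coloured by whether the adjusted p is under 0.05. Nfe2l2 has the highest value and Gpx3 the lowest in both genotypes. Nqo1, Sod3, Gsta4, Gstm1, Mgst1, Msrb2 and, in controls, Gstm5 did not reach the minimum in all rod libraries and needed retina to pass the filter.

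In the knockout 30.4% of the 16036 genes tested were called higher and 33.7% lower in rod TRAP, and 39.2% and 18.1% of the 12047 genes at the minimum in all 6 libraries. Of the 33 members that met this minimum (*Gstm5* now among them), 3 were called higher (9.09%), 11 lower (33.3%) and 19 were not called. With a replicate block, which pairs the rod and retina libraries of 1 number, 6 were called higher, *Sod2*, *Gsr* and *Park7* in addition, and 12 lower, with *Txn2* added. Of the 12047 genes, 44.4% were then called higher and 21.4% lower. *Nfe2l2* differed by 0.98 ± 0.16 (limma adjusted p = 3.1e-04), *Gclc* by 0.59 ± 0.14 (limma adjusted p = 0.0040) and *Txnrd1* by 0.55 ± 0.13 (limma adjusted p = 0.0044). With the authors' scaling alone, *Nfe2l2* was still called at 0.45, and *Gclc* and *Txnrd1* were not, at 0.06 and 0.01. *Sod2* and *Cat* were not called in the knockout, at 0.33 ± 0.14 and 0.24 ± 0.18, and their signs turned with that scaling. With the block, *Sod2* had a limma adjusted p of 0.033. *Gpx3* was at -5.40 ± 0.24 and *Prdx6* at -3.35 ± 0.15, both called. Whether the fraction contrast itself differed between the genotypes is taken up with the interaction below.

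No antioxidant gene met the threshold for a genotype difference in rods. The 6 rod TRAP libraries tested 13104 genes, of which 143 (1.09%) were called, and 33 members, of which 0 were called by limma. *Abca4* itself was not called in this fit (-5.79 ± 1.81, limma adjusted p = 0.42), with the third knockout library at 23.53% of the control mean. A large change with uneven libraries can thus miss the threshold. The 6 members under the filter were at 0 to 2.4 TPM in every rod library and cannot be judged there. At an unadjusted p under 0.05 stood 5 of the 33, against 10.4% of all genes. Of these, 4 were higher in *Abca4*Ko (5.3% of all genes were) and 1 was lower (5.12%). The 3 libraries of a genotype lay wholly to one side of the other for 6 members, against 17.6% of all genes. The median log2 fold change of the 33 was 0.04, beside 0.00 over all genes, with 20 above 0 and 13 below (50.1% of all genes were above). Without the library labelled *Abca4*Ko replicate 3, 21 were above 0 and 0 were called.

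On the fitted scale, log2(CPM + 0.5), the 95% interval of the log2 fold change had a median half-width of 0.27. For 33 of 33 members it excluded both a doubling and a halving on that scale. For 26 of 33 it also excluded a 1.5-fold change in either direction. The pseudocount narrows the intervals of low genes, so for these the exclusion does not carry over to CPM itself. The intervals include the library labelled *Abca4*Ko replicate 3, and none are given without it. The interval of *Nfe2l2* ran from -0.26 to 0.15 and that of *Keap1* from -0.24 to 0.18. Among the classical NRF2 targets, *Hmox1* ran from -0.45 to 0.37, *Srxn1* from -0.27 to 0.17, *Txnrd1* from -0.21 to 0.15 and *Gclc* from -0.12 to 0.30. *Gstm5*, the lowest in counts of those tested, had the widest, from -0.48 to 0.88. Its CPM was near the pseudocount, so this interval cannot exclude a doubling or a halving of its CPM.

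**Figure D3:**
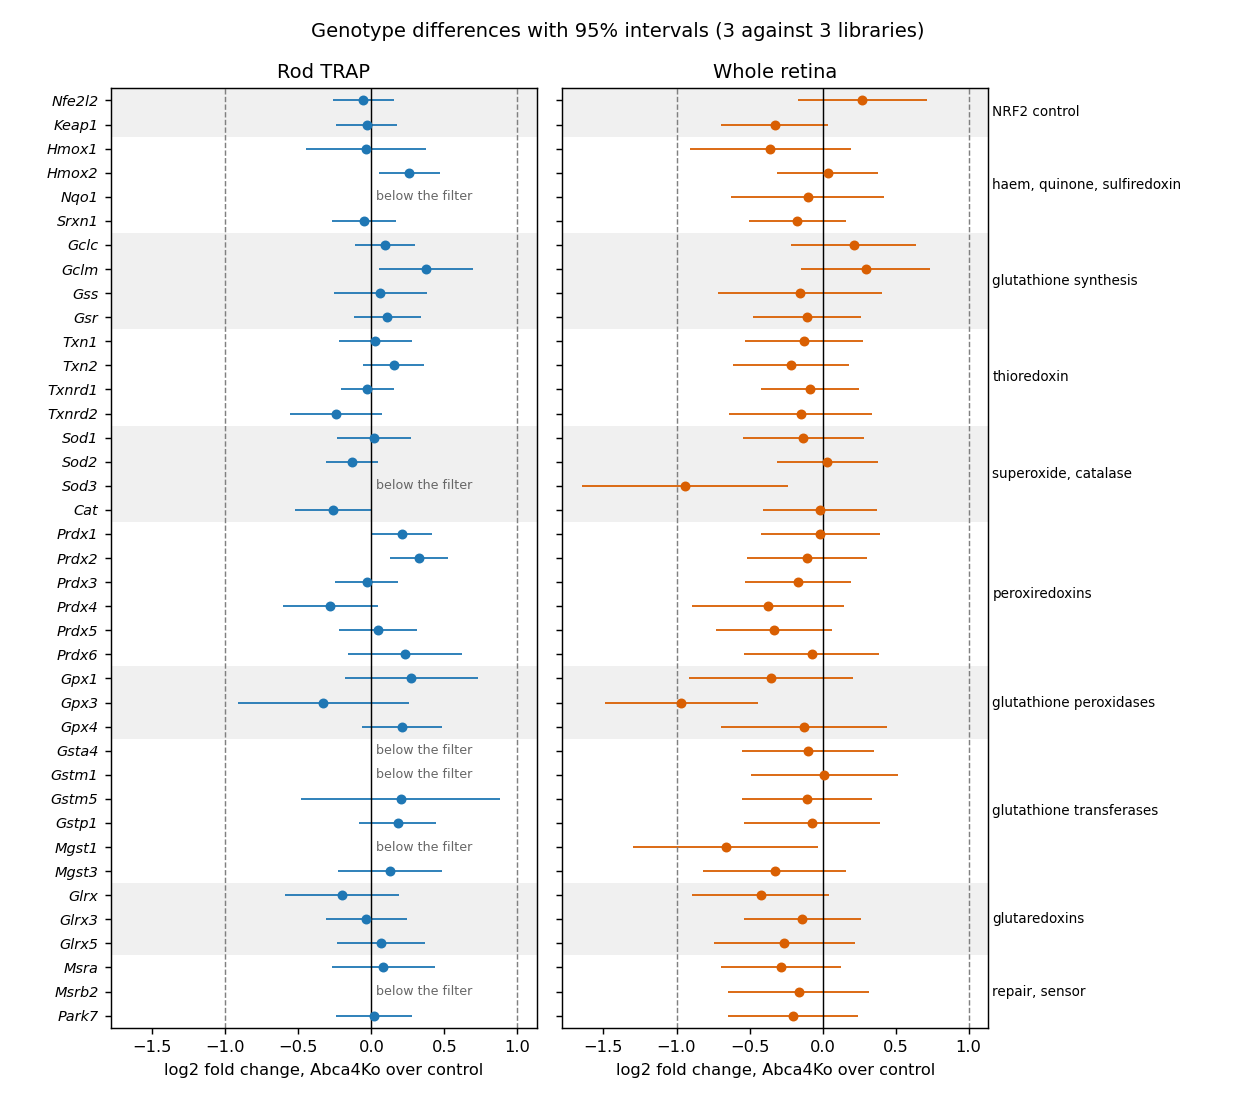
Log2 fold change of each member, Abca4Ko over control, with its 95% interval from limma, in rod TRAP (left) and whole retina (right), and with dashed lines at a halving and a doubling. Every interval in rod TRAP lies within the dashed lines, and the intervals of Gpx3, Sod3 and Mgst1 in retina reach below a halving. The scale is log2(CPM + 0.5), which narrows the intervals of low genes.

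The member nearest to the threshold in rods was *Prdx2*, which encodes a cytosolic peroxiredoxin that removes hydrogen peroxide. Its CPM was 152, 131 and 126 in *Abca4*Ko and 110, 110 and 106 in controls. All 3 knockout libraries lay above all 3 controls. The log2 fold change was 0.32 ± 0.09 (SE, n = 3 and 3, limma adjusted p = 0.17), or 25.7% in CPM, and the adjusted p ran from 0.029 to 0.84 over the alternatives. The blood markers summed to 33.3, 16.3 and 11.7 TPM in the same knockout libraries and to 33.1, 11.1 and 31.5 TPM in the controls, and their part in the *Prdx2* values was not tested. *Prdx1*, its close relative, was at 80.5, 72.9 and 65.1 CPM against 62.2, 61.8 and 64.1 CPM and differed by 0.21 ± 0.09 (limma adjusted p = 0.48). Its lowest knockout library lay just above its highest control.

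*Gclm*, the regulatory subunit of glutamate-cysteine ligase and a classical NRF2 target, was at 15.1, 22.2 and 21.4 CPM in *Abca4*Ko rods and at 14.5, 15.0 and 14.8 CPM in controls. In CPM the first knockout library lay at the level of the controls and the other 2 above them. In TPM the groups overlapped, at 15.7, 19.1 and 19.1 in *Abca4*Ko against 12.6, 24.0 and 10.8 in controls. The log2 fold change in CPM was 0.37 ± 0.15 (limma adjusted p = 0.39). Without *Abca4*Ko replicate 1 it came to 0.55 (limma adjusted p = 0.0023), and *Prdx2* came to 0.24 (limma adjusted p = 0.029), so that 2 members were called. For *Gclm* that setting leaves out the knockout library at the control level, so its call adds no evidence of a difference. In that setting 615 of the 13104 genes were called, and with any other single library left out, 0 members were. Without the library labelled *Abca4*Ko replicate 3, *Prdx2* was at 0.38 (limma adjusted p = 0.13), *Prdx1* at 0.29 (limma adjusted p = 0.29), *Hmox2* at 0.27 (limma adjusted p = 0.41), *Cat* at -0.23 (limma adjusted p = 0.55) and *Gclm* at 0.30 (limma adjusted p = 0.51). Lens genes summed to 2.2, 246.7 and 206.2 TPM in the knockout rod libraries and to 205.0, 2.6 and 4.3 TPM in the controls, high in the knockout libraries where *Gclm* was high and also in control replicate 1, where it was not. Cone markers had 9 of 10 values above 0 in *Abca4*Ko rods (median 0.40, with 1 called). The part of these cells in the member values was not tested.

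*Hmox2*, the constitutive haem oxygenase, was at 28.4, 26.3 and 27.0 CPM in *Abca4*Ko rods and at 22.5, 21.8 and 23.6 CPM in controls, with no overlap. It differed by 0.26 ± 0.10 (limma adjusted p = 0.35). The inducible *Hmox1* was at 4.09, 4.29 and 5.07 CPM against 3.75, 5.83 and 4.42 CPM, and its groups overlapped. Of the 5 members at an unadjusted p under 0.05, *Cat* was the only one lower in *Abca4*Ko. It was at 20.8, 26.8 and 22.0 CPM against 25.8, 29.8 and 27.8 CPM, and differed by -0.26 ± 0.12 (limma adjusted p = 0.48). Its highest knockout library lay above the lowest control.

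By role, the 4 genes of glutathione synthesis and recycling all had values above 0 in rods (0.06 to 0.37), as did the 3 glutathione transferases tested (0.13 to 0.20). The 2 genes of NRF2 control lay just below 0 (-0.05 and -0.03). The peroxiredoxins spread from -0.28 for *Prdx4* to 0.32 for *Prdx2*, the glutathione peroxidases from -0.33 for *Gpx3* to 0.27 for *Gpx1*, and the thioredoxin genes from -0.24 for *Txnrd2* to 0.15 for *Txn2*. Both *Prdx4* and *Txnrd2* had 3 knockout libraries below the 3 controls. *Gpx4* differed by 0.21 ± 0.12 (limma adjusted p = 0.61), with 540, 383 and 385 CPM in *Abca4*Ko and 363, 364 and 390 CPM in controls. Its first knockout library alone stood apart.

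**Figure D4:**
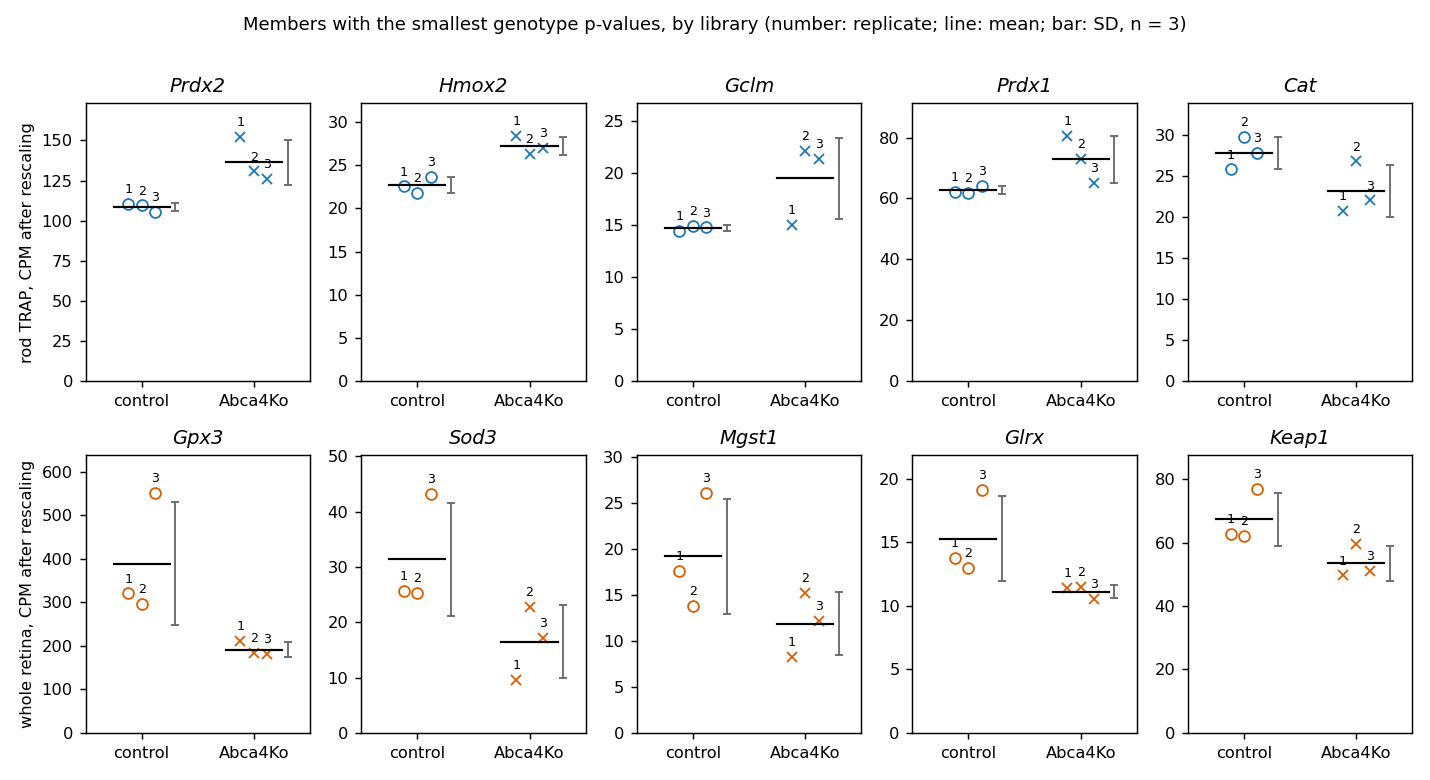
CPM after rescaling in each library (numbers give the replicate) for the 5 members with an unadjusted p under 0.05 in rod TRAP (top) and, in retina (bottom), the 3 such members and the next 2 by p, with the mean (line) and SD (bar, n = 3). Prdx2 and Hmox2 do not overlap between genotypes in rods, Abca4Ko replicate 1 is at the control level for Gclm, and control replicate 3 is the highest of the controls for the 5 retina members.

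In whole retina most members had values below 0, and 0 were called by limma. All 39 were tested among 16964 genes, of which 18 (0.106%) were called. At an unadjusted p under 0.05 stood 3 members, against 12% of all genes. Of these, 0 were higher in *Abca4*Ko (8.92% of all genes were) and 3 were lower (3.07%). The libraries of 6 members did not overlap between the genotypes, against 19.9% of all genes, counted in either direction. All 6 were lower in *Abca4*Ko, and the share of all genes by direction was not computed. Of the 39, 33 had a log2 fold change below 0, and their median was -0.14, beside -0.02 over all genes, of which 52.2% were below 0. In bulk retina, fewer cells of a type and less RNA per cell cannot be told apart.

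The precision was lower than in rods, with a median half-width of 0.45. The intervals of 36 of 39 members excluded a doubling and a halving, and those of 39 of 39 excluded a doubling. A 1.5-fold change in either direction was excluded for 17 of 39. The limits given for the rod intervals, the pseudocount and the third knockout replicate, hold here too. *Nfe2l2*, at 26.3, 20.6 and 21.2 CPM in *Abca4*Ko and 22.0, 18.3 and 16.0 CPM in controls, had the interval -0.17 to 0.71. *Keap1* was at 49.6, 59.7 and 51.0 CPM against 62.9, 62.2 and 76.9 CPM, without overlap, and differed by -0.33 ± 0.17 (limma adjusted p = 0.43). Of the classical targets, *Hmox1* was at 4.37, 5.92 and 5.32 CPM against 6.03, 5.60 and 9.10 CPM, and *Nqo1* at 4.56, 4.63 and 4.13 CPM against 5.57, 3.65 and 5.42 CPM. *Gclm* was at 23.7, 19.9 and 28.2 CPM against 20.1, 21.0 and 16.8 CPM. Each of these overlapped between the genotypes and was not called, at -0.36, -0.10 and 0.30 on the log2 scale. The value of *Gclm* turned to -0.15 in TPM. *Gclc* (0.21), *Txnrd1* (-0.09) and *Srxn1* (-0.17) were not called either.

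*Gpx3* had the lowest p of the members in retina. Its CPM was 211, 183 and 181 in *Abca4*Ko and 321, 296 and 552 in controls, so that all 3 knockout libraries lay below all 3 controls. The log2 fold change was -0.97 ± 0.23 (limma adjusted p = 0.34), and it became -0.69 (limma adjusted p = 0.83) without control replicate 3. The adjusted p ranged from 0.071 to 0.83 over the alternatives. *Sod3* was at 9.63, 22.7 and 17.1 CPM against 25.7, 25.3 and 43.2 CPM, again without overlap, and differed by -0.94 ± 0.32 (limma adjusted p = 0.40). *Mgst1* was at 8.30, 15.2 and 12.1 CPM against 17.6, 13.8 and 26.1 CPM. Its groups overlapped, and it differed by -0.66 ± 0.28 (limma adjusted p = 0.40).

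Markers of several other cell types were mostly below 0 in the knockout retina. The 10 RPE markers had 10 values below 0 (median -0.68), with summed TPM of 101.5, 240.8 and 147.3 in *Abca4*Ko and 184.0, 271.2 and 433.6 in controls. The 5 blood genes tested had 5 below 0 (median -0.93), with sums of 382.9 to 602.8 TPM against 541.0 to 1235.2 TPM. Cone markers were below 0 for 9 of 10 (median -0.30, sums 1514.9 to 2180.1 TPM against 2222.1 to 2528.8 TPM), microglia markers for 10 of 12 (median -0.27, 93.5 to 148.0 TPM against 143.9 to 185.0 TPM) and vascular markers for 8 of 12 (median -0.37, 41.9 to 152.3 TPM against 91.8 to 150.3 TPM). No gene of these 5 lists was called, and 1 of the 6 blood genes was at 0 in all 3 knockout retina libraries. Among the other lists, 7 of 14 Müller glia markers were below 0 (median 0.01), as were 8 of 15 rod and 5 of 10 bipolar markers. For amacrine cells it was 5 of 10, for lens 4 of 10, for horizontal cells 3 of 5 and for ganglion cells 8 of 10. None of these was called either. Control replicate 3, the highest library for *Gpx3*, *Sod3* and *Mgst1*, was also the highest for the RPE sum. *Abca4*Ko replicate 1, the lowest for *Sod3* and *Mgst1*, was the lowest for the RPE and the Müller glia sum (3901.2 TPM, beside 4586.0 to 6910.0 in the other retina libraries). It was also the lowest for the cone, bipolar, amacrine, horizontal, ganglion, microglia, vascular and lens sums, though not for blood. Its rod sum was the highest (133874 TPM, beside 133669 in control replicate 3). The part of these cells in the member values was not tested.

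The count of members on one side moved with single libraries. The number of members below 0 was 29 of 39 without the library labelled *Abca4*Ko replicate 3 and 28 of 39 without control replicate 3, where the medians were -0.07 and -0.09. Without that knockout library, *Gpx3* was at -0.93 (limma adjusted p = 0.53), *Sod3* at -1.01, *Mgst1* at -0.70 (both limma adjusted p = 0.65), *Glrx* at -0.39 (limma adjusted p = 0.67) and *Keap1* at -0.30 (limma adjusted p = 0.67). Over the alternatives it ran from 28 to 36. *Glrx*, a cytosolic glutaredoxin, *Msra* and *Srxn1* completed the members without overlap. *Glrx* was at 11.4, 11.5 and 10.5 CPM against 13.8, 13.0 and 19.1 CPM (log2 fold change -0.42 ± 0.21, limma adjusted p = 0.43).

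The difference between fractions in the genotype effect was then tested as an interaction over all 12 libraries. Of 17273 genes, 1 was called (0.00579%), and 0 of the 39 members. At an unadjusted p under 0.05 stood 0 members, against 11.3% of all genes. With the replicate block, 4 did (*Sod3*, *Prdx2*, *Prdx5* and *Gpx3*), and 0 to 3 under the other alternatives, with 0 called in each. The lowest p belonged to *Prdx2*, whose genotype difference was 0.41 ± 0.20 higher in rods than in retina on the log2 scale (limma adjusted p = 0.47). *Gpx1* followed at 0.61 ± 0.32 (limma adjusted p = 0.48), then *Txn2* at 0.35 ± 0.20 (limma adjusted p = 0.53). Of the 39 values, 34 were above 0, with a median of 0.20 beside 0.01 over all genes, of which 50.6% were above 0. Without both libraries labelled *Abca4*Ko replicate 3, 32 were above 0, with a median of 0.15. For none of the 39 was the genotype effect shown to differ between rods and retina.

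A list of 60 further genes of the pathway (partners of NRF2, cystine transport, NADPH supply, iron storage and other transferases) was read in the same way. In rods 43 of the 60 were tested and 0 called, with 3 higher and 2 lower at an unadjusted p under 0.05, beside the 5.3% and 5.12% of all genes given above. *Ftl1*, the ferritin light chain and an NRF2 target, had the lowest p, at 26.5, 20.3 and 18.6 CPM in *Abca4*Ko against 16.6, 14.9 and 14.2 CPM (0.49 ± 0.14, limma adjusted p = 0.19). *Txnrd3* was at 2.17, 2.00 and 1.37 CPM against 3.45, 2.97 and 2.62 CPM (-0.59 ± 0.20, limma adjusted p = 0.30), and *Ephx1*, an epoxide hydrolase, at 1.30, 2.23 and 1.37 CPM against 0.527, 0.699 and 1.16 CPM (0.72 ± 0.26, limma adjusted p = 0.33). All 3 genes were without overlap. *Slc7a11*, the cystine importer that feeds glutathione synthesis, was at 6.63, 0.743 and 4.33 CPM in *Abca4*Ko rods against 0.585, 0.699 and 0.815 CPM. Its knockout libraries were split, with replicate 2 at the control level, and it was not called (1.55 ± 0.59, limma adjusted p = 0.42). Without that library it was called (2.29, limma adjusted p = 0.0018), as were 119 of the 13104 genes. This setting leaves out the 1 knockout library at the control level, so the call adds no evidence of a difference.

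In retina 55 of the 60 were tested and 0 called, with 5 higher and 3 lower at an unadjusted p under 0.05, beside 8.92% and 3.07% of all genes. *Slc7a11* had the lowest p, at 10.8, 6.03 and 12.1 CPM against 5.11, 4.12 and 3.40 CPM, without overlap (1.07 ± 0.29, limma adjusted p = 0.40). *Osgin1*, an NRF2 target, was at 2.03, 1.35 and 1.45 CPM against 2.87, 3.12 and 5.13 CPM (-0.97 ± 0.27, limma adjusted p = 0.40). *Cul3*, the ligase scaffold through which KEAP1 acts, was at 148, 79.2 and 131 CPM against 77.2, 76.1 and 54.0 CPM (0.75 ± 0.25, limma adjusted p = 0.40). Without the libraries labelled *Abca4*Ko replicate 3, *Ftl1* in rods was at 0.60 (limma adjusted p = 0.10) and *Slc7a11* in retina at 0.88 (limma adjusted p = 0.65). The interaction called 0 of 55. Between the fractions in controls, 40 of the 60 were at the minimum in all 6 libraries, and 14 of them (35%) were called higher and 18 (45%) lower in rod TRAP, beside 46.8% and 23.9% of all such genes.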

How the data were processed

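The authors deposited 2 tables per gene symbol with 1 column for each of the 12 libraries. As deposited by the authors, the first holds a score, here called the scaled count, that had been scaled and rounded: whole numbers whose totals are all but equal within a fraction, as after scaling to a common total (how is not given in the sources used here). The second deposited table holds TPM. The submitters' processing notes name CASAVA 1.8.2, HISAT2, DESeq2, edgeR and build GRCm39, without their roles. RNA (5 ng for lysate, 10 ng for TRAP) was converted with a low-input kit.

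Each library's scaled counts were rescaled with trimmed means of log ratios (TMM, trims of 0.3 and 0.05) and fitted as log2(CPM + 0.5) with limma 3.58.1 (trend, robust; R 4.3.3), 2-sided, for genes with at least 10 scaled counts in at least 3 libraries of a fit. Calls between fractions were counted over genes with at least 10 in all 6 libraries, a choice made after seeing the data. P-values were adjusted by Benjamini-Hochberg over all genes tested. Log2 fold changes of low genes are understated by the pseudocount. The fit was tested on simulated data with the same spread setting for every gene, so that test does not cover the uneven spread of these libraries. Since the values are not raw counts, no count model was used. Promoter sequences were from RefSeq. Python 3.11.15, numpy 2.4.6, pandas 2.3.3 and matplotlib 3.10.9 did the rest. By rule, values are given for the 5 members with the lowest p in each genotype comparison, the 5 largest differences each way between control fractions, the 3 lowest p of the interaction, the 5 highest in TPM, NRF2, KEAP1 and 6 classical targets, and the 3 lowest p of the wider list per genotype comparison. Other members, such as *Prdx6*, and *Slc7a11* in rods were singled out after their values were seen. The members and lists were chosen with earlier results of these data known.

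Rod TRAP and retina libraries that share a replicate number deviated from their group means together over 17273 genes (r from 0.16 to 0.433 for the 6 pairs). Unlike numbers within a genotype gave r from -0.457 to 0.229. The highest of these, *Abca4*Ko rod library 2 with retina library 3, exceeded the 0.206 of its own number. The number was therefore taken to pair those fractions, but this is not clear for that library. The number does not pair genotypes (r from -0.394 to 0.012).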

Additional observations from a re-analysis of the deposited data

How the results depend on the processing

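The counts of members called for the genotype in retina and for the interaction were 0 under all alternatives run, with the authors' scaling, median of ratios, a pseudocount of 2, TPM, no filter, limma without trend and robust, a replicate block and each library left out among them. The count in rod TRAP was 0 to 2 with each library left out, and 2 only without Abca4Ko replicate 1. The interaction called 1 to 3 of all genes. Between the fractions, of the members at the minimum in all 6 libraries, the replicate block left 20 of 32 called in control and moved the count from 14 to 18 of 33 in knockout, where *Sod2* was then called (0.33, limma adjusted p = 0.033). The other alternatives gave counts between 18 and 27 (control) and between 10 and 23 (knockout). The block moved the all-gene count in retina from 18 to 46 and changed no genotype or interaction call of a member.

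Some signs turned, among them those of called values. For the genotype in rods, *Keap1* became 0.022 and *Hmox1* 0.018 without Abca4Ko replicate 1, and *Keap1* 0.0094, *Hmox1* 0.12 and *Srxn1* 9.6e-05 without control replicate 2. With each library left out, *Keap1* ran from -0.069 to 0.022, *Hmox1* from -0.17 to 0.12 and *Srxn1* from -0.11 to 9.6e-05. In retina, *Gclm* became -0.15 in TPM, and *Nqo1* ran from -0.28 to 4.4e-04, the last without control replicate 1. Between the fractions in control, the authors' scaling gave -0.032 for *Sod2*, -0.041 for *Txnrd1*, -0.042 for *Cat*, -0.51 for *Hmox1* and -0.37 for *Gclm*. TPM gave -0.18 for *Hmox1* and -0.54 for *Gclm*, and median of ratios -0.019 for *Hmox1*. With each library left out, *Hmox1* ran from -0.080 to 0.22. In knockout, the authors' scaling gave -0.20 for *Sod2* and -0.29 for *Cat*. This scaling moves the median of all genes, and the cause of the other turns was not tested. Counts of members without overlap were not recomputed with a library left out.

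The all-gene counts that moved by over 1.5 times were, in rods, 58 in TPM, 42 without trend and robust, 94 in 1 fit of all 12 libraries and 30 to 615 with a library left out, against 143. In retina they were 33 without a filter, 38 in TPM, 46 with the replicate block, 62 in the fit of 12 and 4 to 37 with a library left out, against 18. With 3 libraries a group, the 95% interval of the median member reached 0.27 (rods) or 0.45 (retina) to either side on the log2 scale, and the 6 members under the filter were not tested in rods.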
